A study of Mus musculus with 4 samples.

Results

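The nuclear-encoded genes of the mitochondrial respiratory chain were described in 4 mouse tumours. Members were taken by symbol from a table of 46946 genes, as genes named Nduf (complex I), Sdh (complex II), Uqcr (complex III), Cox4 to Cox8 (complex IV) or Atp5 (complex V) with a subunit letter or number. This gave 91 genes, of which 39 belong to complex I, 4 to complex II, 8 to complex III, 19 to complex IV and 21 to complex V. Symbol patterns leave out some subunits, such as Cyc1 and Ndufab1, and take in pseudogenes of Atp5 genes and the ATP synthase coupling factor gene Atp5s. The 21 chromosomes of the table do not include the mitochondrial genome, so the subunits encoded there were not analysed here. The members lie on 19 chromosomes.

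The 4 libraries form 1 group with no control. Their labels describe untreated tumours that arose in mice from neural stem cells with PDGFB and the K27M histone genotype, whereas the series text names injected diffuse intrinsic pontine glioma cells with K27M mutant H3.3, and the files do not settle which holds. K27M replaces a lysine of the histone tail that Polycomb repressive complex 2 methylates, and PDGFB is the ligand of a receptor tyrosine kinase found on glial progenitors. PolyA RNA of the tumours was sequenced with no sort of cells named, and the count columns are named T14, T10, T8 and TUN. No column name could be tied to 1 sample title.

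The libraries held between 21664889 and 24369339 counts. Markers of oligodendrocyte precursors were present in every tumour (summed over 6 genes, 8020 CPM in T14 and 9420 in T10, with 12992 in T8 and 10595 in TUN), and neural stem cell markers summed to between 1887 and 4578 CPM over 4 genes. Here CPM is the usual library-scaled count, with library sizes adjusted by edgeR's trimmed mean of M values. The 10 neuron markers summed to 3736, 2991, 390 and 351 CPM in the same order of tumours, 7 astrocyte markers to 6677, 4263, 2141 and 2000 CPM, and 6 mature oligodendrocyte markers to 3634, 4883, 917 and 872 CPM. T14 and T10 thus carried more of all 3 marker sums than T8 and TUN. Among the neuron markers Tubb3 did not follow the sum (111, 217, 77.6 and 175 CPM). The neural stem cell sum went the other way, at 1993, 1887, 4578 and 3307 CPM, as did that of 7 mitosis markers, at 639, 657, 1150 and 1504 CPM. In bulk tissue, fewer cells of a type and less RNA per cell cannot be told apart.

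The respiratory chain passes electrons from NADH, through complex I, and from succinate, through complex II, to complex III and then by cytochrome c to complex IV, which reduces oxygen. Complexes I, III and IV pump protons across the inner mitochondrial membrane, and complex V, the ATP synthase, lets them flow back to make ATP. Each complex other than II is assembled from products of both the nuclear and the mitochondrial genome, and several subunits of complexes IV and V have tissue-specific isoforms encoded by separate genes. The nuclear factors NRF-1, the ETS factor GABP, YY1 and the oestrogen-related receptors are known to act at promoters of these genes.

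Promoters of the members were searched for elements of these factors and for general elements. Whether a match goes with the range of a gene between tumours was not tested. RefSeq windows of 300 bases on GRCm38.p6, 250 before and 50 after the gene start, were matched to 66 members, of which 63 were detected, meaning 1 CPM or more in all 4 tumours. The NRF-1 element, GCGCA, any base, then GCGC, read on both strands, was found in 16 of the 63 windows (25.4%), against 10.5% of 10240 windows of all detected genes and 6.24% of 19285 windows of all genes. By complex it was in 7 of 32 windows of complex I, 2 of 3 of complex II, 1 of 5 of complex III, 1 of 10 of complex IV and 5 of 13 of complex V. The element is shown for the member of highest mean RPKM in each complex whose match lies wholly before the start, with the match in capitals and each sequence written 5′ to 3′ on the strand of the gene. In complex III no match lay wholly before the start. For Atp5g3, which encodes the ring-forming subunit c, the capitals mark instead the element of the oestrogen-related receptors.
Ndufa8, chr2:36049349-36049378, minus strand: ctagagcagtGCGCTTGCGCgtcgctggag
Sdhd, chr9:50603879-50603968, minus strand: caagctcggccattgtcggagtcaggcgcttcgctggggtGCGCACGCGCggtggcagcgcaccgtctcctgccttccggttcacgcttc
Cox6a1, chr5:115349026-115349115, minus strand: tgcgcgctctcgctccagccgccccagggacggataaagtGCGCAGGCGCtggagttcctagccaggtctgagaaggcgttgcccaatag
Atp5k, chr5:108434419-108434489, minus strand: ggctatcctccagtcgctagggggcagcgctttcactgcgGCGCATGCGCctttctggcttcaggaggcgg
Atp5g3, chr2:73911330-73911418, minus strand: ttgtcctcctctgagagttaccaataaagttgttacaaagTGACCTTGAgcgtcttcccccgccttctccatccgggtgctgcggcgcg

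The matches in Ndufa8 and Atp5g3 read on the opposite strand, while that in Atp5k is its own reverse complement and reads on both. In Ndufa8 and Atp5k the gene as the deposited table bounds it starts before the RefSeq start, and 30 bases of each printed stretch lie inside it, with all of the Ndufa8 match and nearly all of the Atp5k match among them. The element of the oestrogen-related receptors, TCAAGGTCA, was in the windows of 2 members, Sdhd and Atp5g3 (3.17%), against 0.234% of detected genes. In Sdhd it lies 36 to 44 bases after the start. The YY1 element AANATGGC was in 14 windows (22.2%, against 8.54% of detected genes), and 11 of the 14 belong to complex I, among them Ndufs7 and Ndufs8. In Ndufs4, Ndufa3, Ndufa9, Ndufs6, Ndufs7, Ndufb8 and Ndufc1 it lies after the start, between bases 22 and 45, and in Ndufs8 before it. The ETS element CCGGAAGN was in 15 (23.8%, against 18.03%), including Cox8a, Cox6b1 and Cox6a1. The general elements TATAAA and CCAAT were in 7.94% and 42.9% of the members' windows, against 6.59% and 38.7% of those of detected genes. Median GC content was 57.3% in the members' windows and 61.3% in those of all detected genes. Elements were counted on both strands and may overlap each other, and a match describes letters in a window, not binding.

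Of the 91 genes, 77 were detected. They made up 36 of 39 in complex I, all 4 in complex II, all 8 in complex III, 12 of 19 in complex IV and 17 of 21 in complex V. Levels between genes are compared as RPKM, the CPM per kilobase of merged exon length given in the table. The detected members had a median of 57.6 RPKM, against 8.47 RPKM over all 13245 detected genes, and reached from 0.860 RPKM (Atp5g2) to 388 RPKM (Cox8a). All 91 members together took 1.07% of the counts in T14 (95% Wilson interval 1.06 to 1.07), 0.978% in T10 (0.974 to 0.982), 1.06% in T8 (1.05 to 1.06) and 1.05% in TUN (1.04 to 1.05). Complex V took the largest part of this, between 0.391% and 0.441%, and complex II the smallest, between 0.0733% and 0.0813%. These intervals cover counting error only.

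**Figure D1:**
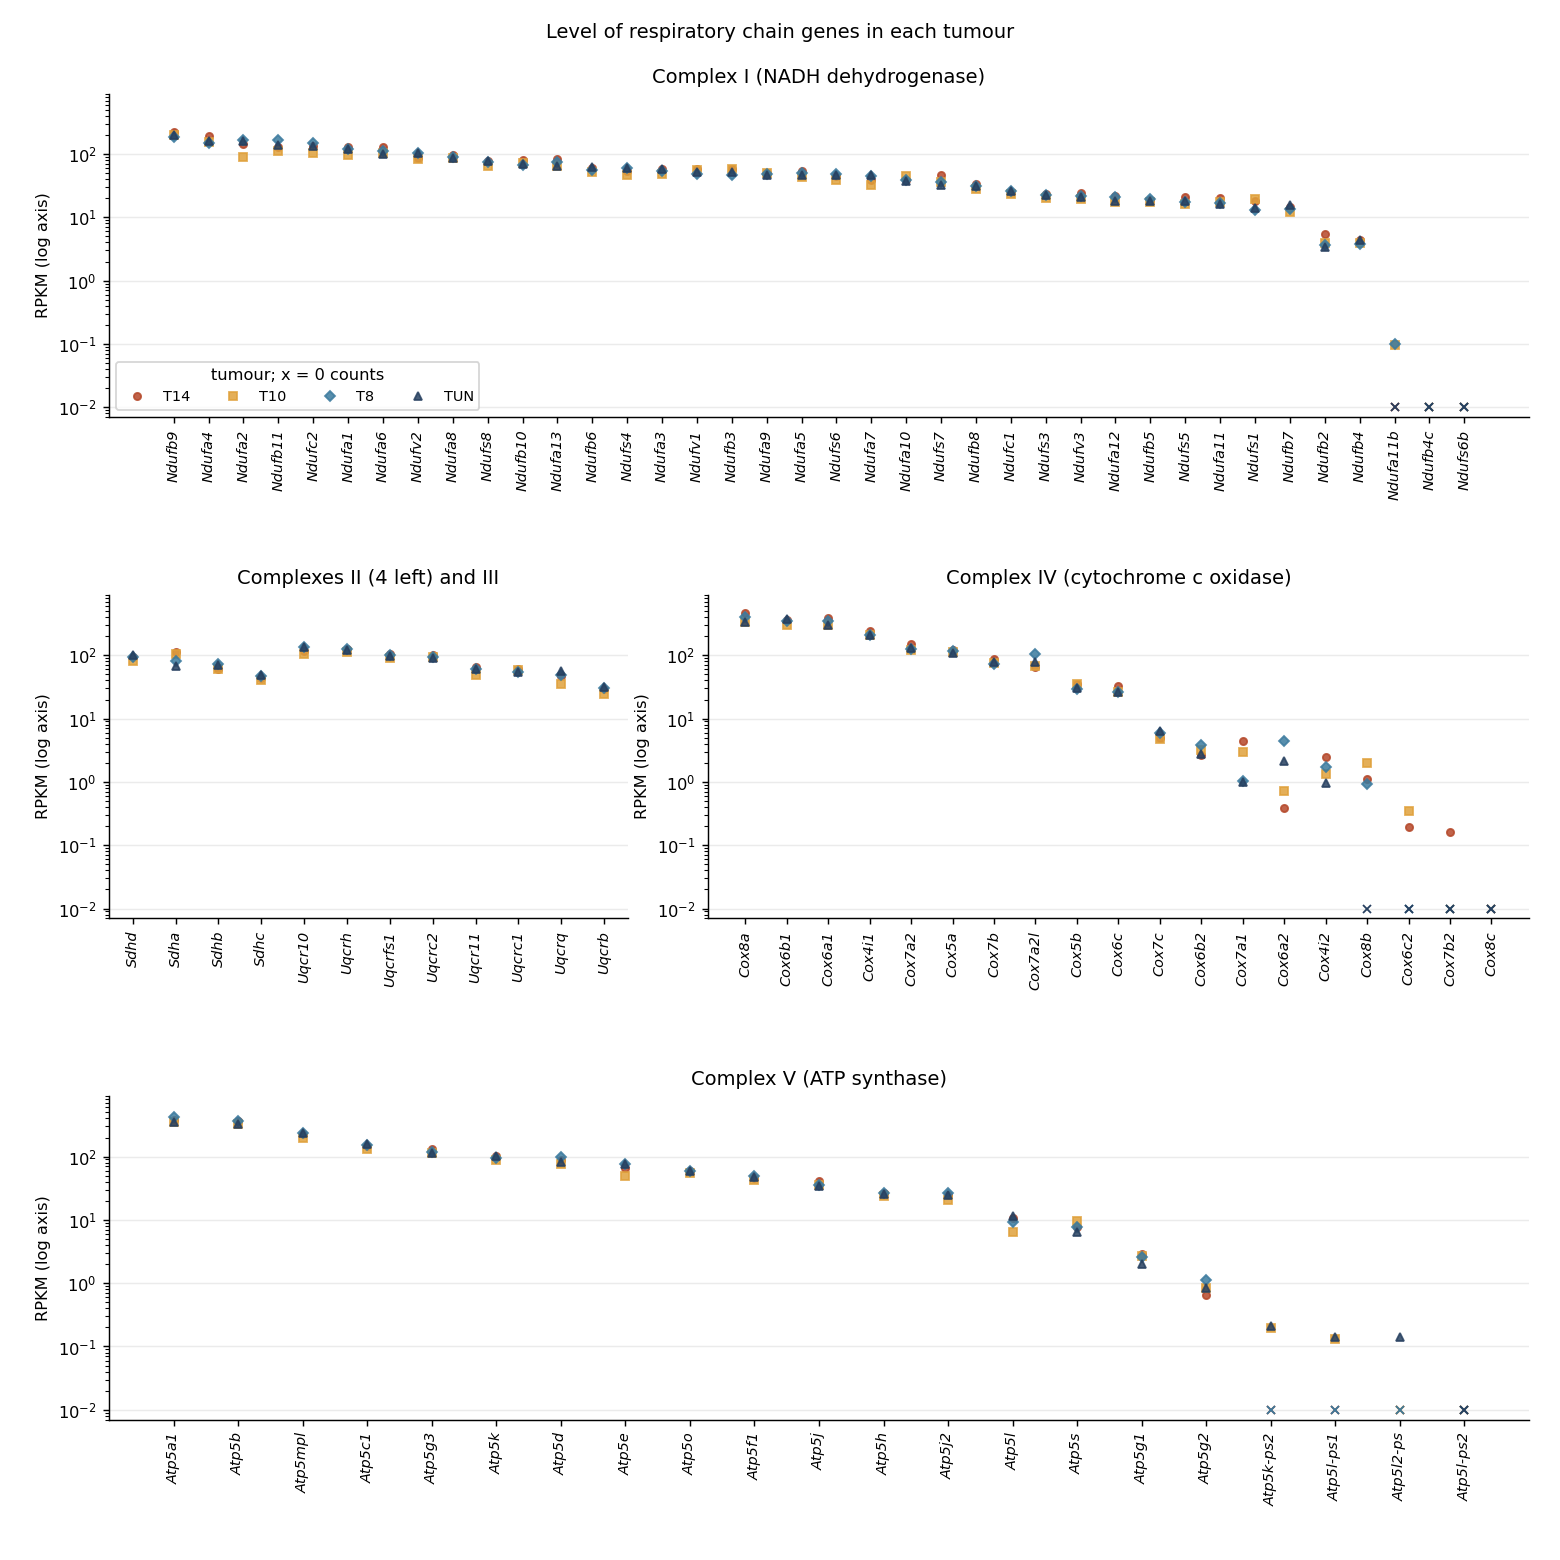
RPKM (log axis) of the respiratory chain genes in the 4 tumours, ordered within a complex from high to low mean; points are tumours and crosses at the foot mark 0 counts. The tumours sit on top of each other for nearly all detected genes, from 388 RPKM (Cox8a) down to 0.860 RPKM (Atp5g2), and spread apart among the scarce complex IV genes.

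The core subunits of complex I are those that electron transfer from NADH to quinone needs, and those named here were spread widely in level. Ndufv2, which holds an iron-sulphur cluster beside the flavin, averaged 94.7 ± 11.1 RPKM (SD, n = 4, as for all such values), and Ndufv1, the flavin-binding subunit itself, 53.5 ± 4.4 RPKM. Ndufs8 averaged 73.6 ± 5.76 RPKM, Ndufs7 37.8 ± 6.24 RPKM, Ndufs3 22.4 ± 1.41 RPKM and Ndufs1 16.2 ± 3.16 RPKM. Ndufs1 has a merged exon length of 8086 bases, against 2661 bases in its principal coding transcript, so its level per length depends on which is used. In CPM Ndufs1 stood at 147 in T14 and 159 in T10, with 106 in T8 and 114 in TUN, so that T14 and T10 lay above the other tumours. The values of Ndufs7 were 80.3, 62.3, 62.4 and 55.1 CPM in the same order of tumours, so it was highest in T14.

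The most abundant complex I members per length were the accessory subunit gene Ndufb9, at 202 ± 14.3 RPKM, and Ndufa4, at 163 ± 21.1 RPKM. Ndufa4 carries a complex I name, but its product is now known as a subunit of complex IV. Its 4 values were 268 CPM in T14 and 211 in T10, with 204 in T8 and 219 in TUN. The least abundant detected members were Ndufb2, at 4.14 ± 0.930 RPKM, and Ndufb4, at 4.13 ± 0.353 RPKM, both accessory subunits of the membrane arm. Ndufb2 had 31.0 CPM in T14 and between 19.3 and 22.0 in the others. The widest span of any detected member belonged to Ndufa2, another accessory subunit gene, at 83.0 CPM in T14 and 50.7 in T10, with 93.6 in T8 and 93.1 in TUN. The low value in T10 made its highest level 1.85 times its lowest.

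Complex II, succinate dehydrogenase, also works in the citric acid cycle and is wholly nuclear-encoded. Its flavoprotein gene Sdha showed 437 CPM in T14 and 400.4 in T10, with 310.3 in T8 and 264 in TUN, a span of 1.65-fold with T14 and T10 above T8 and TUN. The iron-sulphur subunit gene Sdhb ran the other way at 136, 138, 160.5 and 156 CPM. The membrane anchor genes Sdhc (144, 131, 156 and 158 CPM) and Sdhd (121, 104, 122 and 131 CPM) were both lowest in T10 and highest in TUN. Per length, Sdhd averaged 92.7 ± 8.75 RPKM, Sdha 90.9 ± 20.5, Sdhb 66.0 ± 5.56 and Sdhc 45.2 ± 3.85.

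All 8 members of complex III, the cytochrome bc1 complex, were detected, at mean levels between 29.2 and 123 RPKM. The small subunit genes Uqcr10 and Uqcrh led with 123 ± 14.99 and 122 ± 7.34 RPKM. The Rieske iron-sulphur protein gene Uqcrfs1 followed at 98.6 ± 6.31 RPKM, and the core protein genes Uqcrc2 and Uqcrc1 at 95.0 ± 5.07 and 57.3 ± 2.89 RPKM. Both core proteins were among the steadiest members in CPM. Uqcrc1 stood at 252 CPM in T14 and 242 in T10, with 229 in T8 and 226 in TUN. Uqcrc2 had 257 CPM in T14 and 231 to 232 CPM in the other tumours. The lowest members were Uqcrq, at 47.1 ± 8.81 RPKM, and Uqcrb, at 29.2 ± 3.11 RPKM, both genes of small subunits. Uqcrq was lowest in T10 at 64.1 CPM, with 103 in TUN, 90.8 in T8 and 87.8 in T14.

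Complex IV, cytochrome c oxidase, held the member that was highest per length and 7 of the 14 that were not detected. Cox8a averaged 388 ± 65.7 RPKM, Cox6b1 347 ± 31.4, Cox6a1 334 ± 39.1 and Cox4i1 218 ± 18.96 RPKM, each the broadly expressed form of its subunit. Cox4i1 (chromosome 8, 120668222 to 120674207, mm10) encodes the largest nuclear subunit and stood at 382 CPM in T14, against 322 in T10, 329 in T8 and 320 in TUN. Cox6c, an accessory subunit gene, was likewise higher in T14 at 116 CPM, with 93.2 to 94.7 CPM in the others. At the low end were Cox7c, at 5.50 ± 0.838 RPKM, and Cox6b2, at 3.11 ± 0.511 RPKM. Cox6b2 is known as the testis form of subunit 6b and was nevertheless detected, at 2.97 CPM in T14 and 3.58 in T10, with 4.19 in T8 and 3.04 in TUN. Of 6 testis germ cell genes none was detected, and their sum was 0.122 to 0.251 CPM.

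In complex V the catalytic F1 head stood far above its stalks in counts. The beta subunit gene Atp5b, which carries the catalytic sites, had 1554 CPM in T14 and 1375 in T10, with 1532 in T8 and 1404 in TUN, and the alpha subunit gene Atp5a1 1170, 1101, 1313 and 1107 CPM. Per length these were 346 ± 21.2 RPKM and 374 ± 31.5 RPKM. The central stalk genes were lower, with Atp5c1 (gamma) at 147 ± 11.6, Atp5d (delta) at 86.9 ± 9.94 and Atp5e (epsilon) at 67.1 ± 12.7 RPKM. The enzyme holds more copies of the alpha and beta proteins than of any stalk protein. Atp5e was lowest in T10, at 87.6 CPM, with 134 in TUN, 135 in T8 and 114 in T14. Atp5o, the gene of the oligomycin sensitivity protein that ties the head to the outer stalk, had 123 CPM in T10 and 135 CPM in each other tumour. Atpif1, the inhibitor that blocks ATP hydrolysis by the enzyme and is not a member by symbol, stood at 58.5 CPM in T14 and 52.7 in T10, with 72.9 in T8 and 81.9 in TUN. It was thus higher in T8 and TUN, but did not pass the test between tumours described further on (edgeR, unadjusted p = 0.755).

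Subunit c of the ATP synthase is made from 3 genes whose mature proteins are known to be identical, so their transcripts add to 1 pool. Atp5g1 averaged 2.57 ± 0.379 RPKM and Atp5g2 0.860 ± 0.193 RPKM, against 118 ± 8.45 RPKM for Atp5g3. The log2 ratio of Atp5g1 to Atp5g3 was -5.48 ± 0.18 over the 4 tumours, and that of Atp5g2 to Atp5g3 was -6.96 ± 0.34. With the length of the principal coding transcript the first was -7.02, and in CPM -4.35. For Atp5g2 this level is uncertain, because 86.9% of the 50-base windows of its coding transcript also occur in transcripts of other genes.

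Complex IV and Ndufa4 have further pairs of paralogous genes, in most of which a restricted form stands beside a broad one. The 2 pairs of subunit c and the pair of Cox7a2l with Cox7a2 are not taken as restricted against broad. Over all 11 pairs, these included, the log2 ratio of RPKM plus 0.1 was below 0 in 4 of 4 tumours. For each pair the two-sided exact sign-flip test over tumours gave p = 0.125, and 0.125 after adjustment over the 11 pairs, which is the smallest p that 4 tumours allow. The size of the ratios ranged widely, and where a form had few or no counts it is set by the pseudocount of 0.1. With a pseudocount of 1 the ratio was -6.41 for Cox4i2, -7.04 for Cox6a2, -7.69 for Cox8b and -6.01 for Atp5g2. With coding transcript length it was -7.98 for Cox4i2 and -6.55 for Ndufa4l2, and in CPM it was -6.93 for Cox7a1.

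The ratio of Cox4i2, the form induced by low oxygen and known from lung, to Cox4i1 was -7.06 ± 0.43. Cox4i2 stood at 1.95 CPM in T14 and 1.06 in T10, with 1.34 in T8 and 0.759 in TUN. Pericytes are known to express Cox4i2 in brain, and 7 of their markers summed to 303, 291, 219 and 156 CPM in those tumours. T14 was highest and TUN lowest in both, as in the neuron and astrocyte marker sums, but Cox4i2 was higher in T8 than in T10, unlike the pericyte sum. Single pericyte markers differed, with Vtn, Higd1b and Pdgfrb highest in T14, Rgs5 in T10, Kcnj8 and Abcc9 in T8 and Anpep in TUN. The part of pericytes in the Cox4i2 level was not tested.

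The heart and skeletal muscle forms were scarce. Cox6a2 to Cox6a1 gave -7.87 ± 1.48, Cox7a1 to Cox7a2 gave -6.01 ± 0.98 and Cox8b to Cox8a gave -9.07 ± 1.87. Cox7a1 had 1.60 CPM in T14 and 1.10 in T10, with 0.377 in T8 and 0.357 in TUN, whereas Cox6a2 had 0.266, 0.489, 2.97 and 1.47 CPM. The 2 muscle forms were thus high in different tumours, Cox7a1 in T14 and T10 and Cox6a2 in T8 and TUN. Cox8b had 0.399, 0.733 and 0.335 CPM in T14, T10 and T8 and 0 counts in TUN, where it was at least 908-fold lower than Cox8a per length, taking 3 counts in that library as the floor. Summed over the tumours, 35 Cox8b counts against 19707 Cox8a counts made it 374-fold lower (exact 95% interval 269 to 537). That interval covers counting error in the pooled counts and not the spread between tumours. By tumour, Cox8b was 428-fold lower in T14, 166-fold in T10 (105 to 280) and 441-fold in T8. None of 11 muscle marker genes was detected, and they summed to 3.73 CPM in T14 and 5.29 in T10, with 1.34 in T8 and 0.804 in TUN. Brown fat markers, another site of Cox7a1 and Cox8b, summed to 1.82, 1.26, 0.419 and 0.357 CPM over 2 genes, neither of them detected.

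The testis-linked forms were at or near 0. Cox8c had 0 counts in all 4 tumours and was at least 5737-fold lower than Cox8a per length over the group, with the floor of 3 counts taken over the group. Cox7b2 had 2 counts in T14 and none elsewhere, against 8953 counts of Cox7b, a ratio of 1999-fold on pooled counts with an interval of 553 to 16503. Cox6b2 to Cox6b1 gave -6.77 ± 0.31, and -5.58 with coding transcript length. Ndufa4l2, a hypoxia-induced relative of Ndufa4, had 3.77 RPKM against 163 RPKM for Ndufa4, a log2 ratio of -5.41 ± 0.30. Cox7a2l differed from all of these. This gene, known for a protein that holds complexes III and IV together rather than for a place in complex IV itself, averaged 78.5 ± 17.6 RPKM against 132 ± 12.9 RPKM for Cox7a2, a ratio of -0.77 ± 0.39. In CPM the ratio was -0.17 and its sign was not shared by all tumours (exact sign-flip p = 0.5). Cox7a2l stood at 74.1 CPM in T14 and 77.7 in T10, with 119 in T8 and 89.6 in TUN, and was highest in T8.

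**Figure D2:**
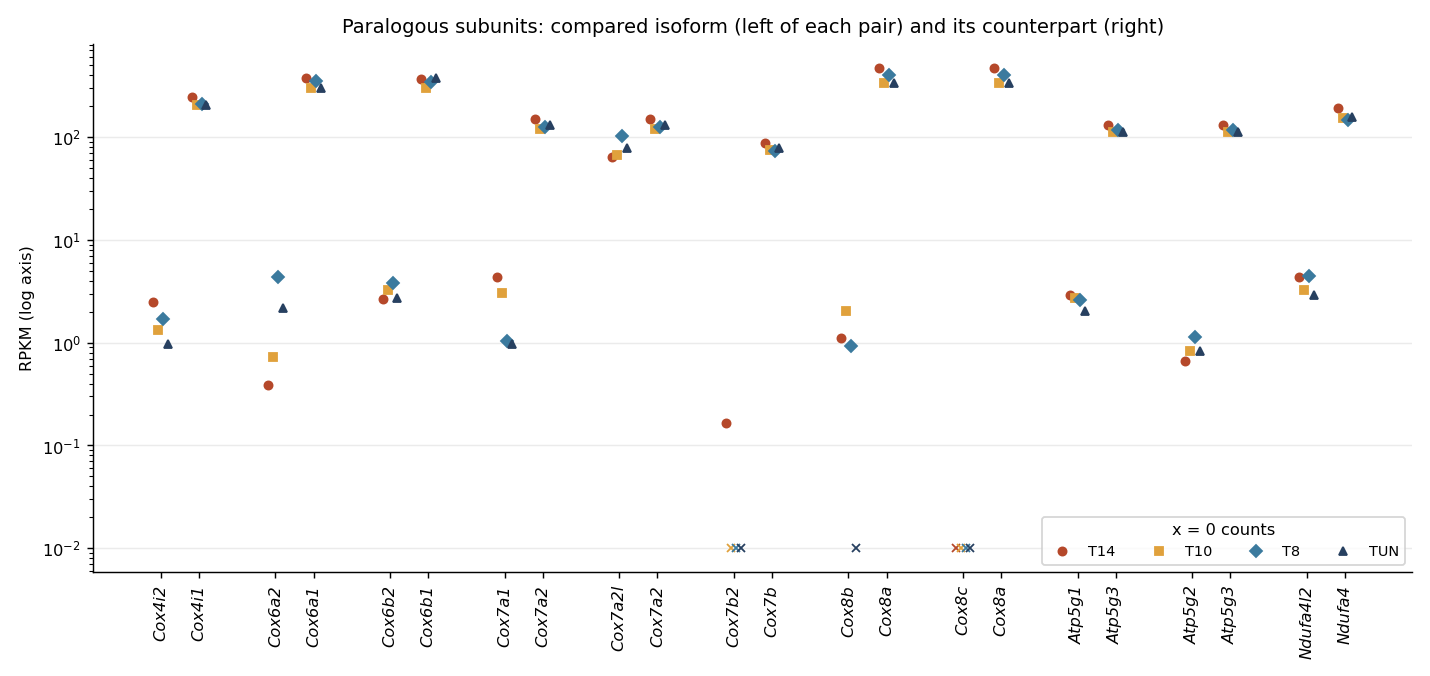
RPKM (log axis) of the 11 pairs of paralogous genes; in each pair the compared form is on the left and its counterpart on the right, points are the 4 tumours and crosses mark 0 counts. Cox7a2l, at 78.5 RPKM beside 132 RPKM for Cox7a2, is the only pair of the 11 whose members lie within 1 decade of each other.

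The other members that were not detected were mostly at or near 0 counts. Of the 14 undetected genes, 10 had at most 3 counts in every tumour, and 4 of these, Ndufb4c, Ndufs6b, Cox8c and Atp5l-ps2, had none. Ndufa11b, Cox6c2, Cox7b2, Atp5k-ps2, Atp5l-ps1 and Atp5l2-ps made up the rest of the 10. A count of 0 allows up to 0.122 to 0.134 CPM, depending on the library. For 8 of the 14, the vM21 annotation holds no protein-coding transcript.

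The complexes were then compared with each other. The median over all members of log2(RPKM + 0.1) was 6.25 ± 0.08 in complex III, 6.18 ± 0.07 in complex II, 5.58 ± 0.06 in complex I, 5.19 ± 0.12 in complex V and 4.80 ± 0.15 in complex IV (SD over 4 tumours), against 3.05 ± 0.06 over all detected genes. Complex III lay above complex IV by 1.45 ± 0.08, above complex V by 1.06 ± 0.06 and above complex I by 0.67 ± 0.03, in 4 of 4 tumours each. Complexes III and II differed by 0.07 ± 0.07, positive in 3 of 4 tumours, which is within the spread between tumours. Of the 10 pairs of complexes, this was the only one whose sign was not shared by all 4 tumours.

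The order depended on which genes were counted and how length was taken. With detected members only, complex IV was highest at 6.64 ± 0.12 and complex I lowest at 5.64 ± 0.07, since 7 of the 14 undetected genes belong to complex IV. With the length of the principal coding transcript in place of the merged exons, a setting chosen after seeing the data that drops the 8 genes with no coding transcript, complex V was highest at 7.02 ± 0.11 and complex IV lowest at 6.08 ± 0.03. In 22 of the 77 detected members the merged length was at least 2 times that of the coding transcript. With members under 30% shared sequence only, complex III led at 6.56 ± 0.08 and complex V came next at 6.52 ± 0.11. This is another added setting, and it also drops the 8 genes with no coding transcript. Complex III stood first or next to first in these 4 settings, and complex IV moved between the top and the bottom.

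**Figure D3:**
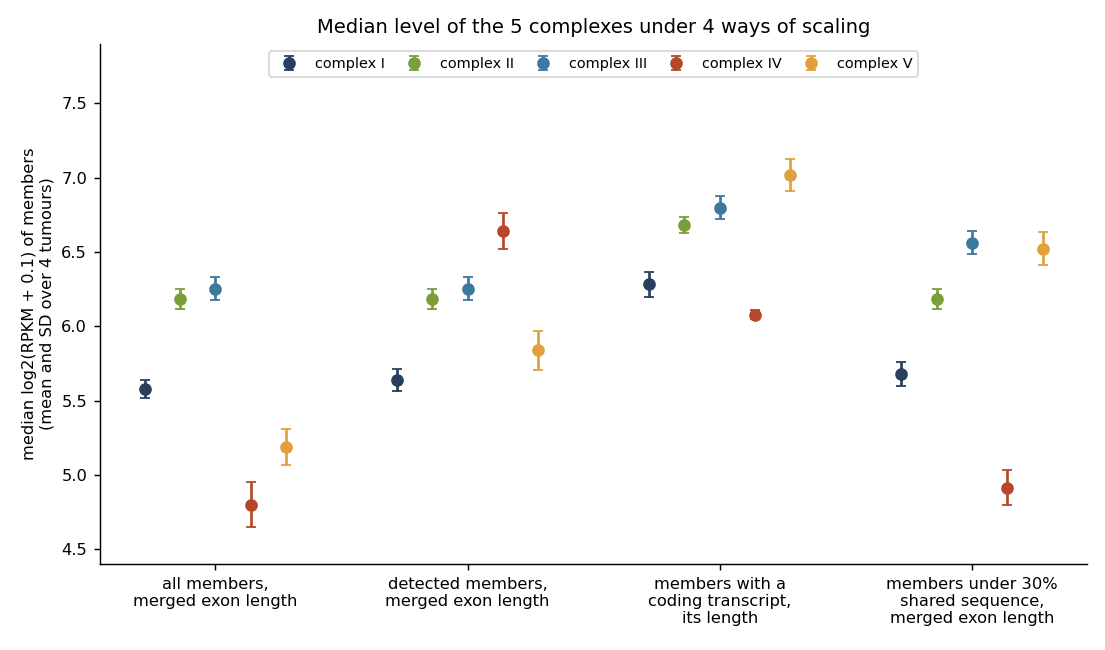
Median log2(RPKM + 0.1) of the members of each complex, mean and SD over 4 tumours, under 4 ways of scaling along the horizontal axis. Complex IV is lowest at 4.80 with all members and highest at 6.64 with detected members, while complex III stays between 6.25 and 6.80.

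Between the tumours the detected members varied little. The highest CPM of a detected member was a median of 1.24 times its lowest, and 1.85 times at most, so all 77 lay under 2-fold, as did 74.1% of all detected genes. Detection asks for 1 CPM in every tumour, so genes that fell low in any tumour are left out of these spans. Of the 14 undetected members, Cox6a2 spanned 11.2-fold (6 to 71 counts), Cox7a1 4.47-fold and Cox4i2 2.57-fold, and Cox8b ran from 0 to 18 counts. Under 1.5-fold lay 69 of the 77 (89.6%), against 46.5% of all detected genes. The median coefficient of variation was 9.53%, against 19.5%. The 5 widest were Ndufa2 (1.85-fold), Atp5l (1.81), Atp5g2 (1.70), Sdha (1.65) and Ndufb2 (1.60), and the narrowest was Ndufa9 (1.07). The members are more abundant than most genes. With both sets held to a mean of 50 CPM or more, a comparison added after seeing the data, 91.1% of 56 members and 56.4% of 5315 genes lay under 1.5-fold.

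In edgeR's goodness of fit, which asks whether a gene varied more between tumours than genes of like abundance, 0 of 78 members tested had an adjusted p under 0.05, against 4.34% of all 14266 genes tested. The smallest unadjusted p among them was 0.508 (Ndufa2), so none was under 0.05 before adjustment either, and DESeq2 marked 0 of them as dispersion outliers. The test reaches large differences only. The 619 genes it called had spans of 3.68-fold or more between tumours, so the spans under 2-fold of the detected members are below anything it called, and a p above the threshold does not show that their levels were equal.

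The small differences followed in part a common order. T10 was lowest for 48 of the 77 members, against 3444 of 13245 detected genes, and T14 was highest for 38, against 3851. Centred on the mean of the 4 tumours, log2 CPM averaged over the members was 0.08 in T14 and -0.12 in T10, with 0.04 in T8 and -0.00 in TUN, a span of 0.20 or 1.15-fold. Over all detected genes the same values were 0.08, 0.05, -0.07 and -0.06. By this mean over detected members T10 was lowest in every complex. It stood at -0.12 in complex I, -0.06 in complex II, -0.17 in complex III, -0.09 in complex IV and -0.12 in complex V. By this measure T10 stayed lowest with edgeR's relative log expression factors in place of the trimmed mean of M values, and with library size alone. By the median level of all members, TUN was lowest instead in complex II (6.11, against 6.14 in T10) and complex V (5.10, against 5.15). In complex IV, 4 detected members were lowest in T10 and 4 in TUN. The span was widest in complex III (0.24) and narrowest in complex II (0.12). Without T10, the span over all members fell to 0.08 and that of complex III to 0.02, so these spans rest on that tumour. A single tumour cannot be told apart from its library here.

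Complex II did not move as a unit. Sdha was highest in T14 and lowest in TUN, while Sdhb was highest in T8 and lowest in T14. Sdhc and Sdhd were highest in TUN. In complex V, 8 of the 17 detected members were highest in T8, among them Atp5a1, Atp5d and Atp5e, whereas in complex I 19 of 36 were highest in T14.

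Genes that serve the chain without being members were read from 3 lists. Of 54 assembly factors and electron carriers 51 were tested and 0 passed, against 4.34% of all genes tested, with a median span of 1.35-fold against 1.54-fold over all detected genes. Their most abundant genes were Cyc1, the cytochrome c1 gene of complex III, at 179 CPM in T14 and 143 in T10, with 168 in T8 and 164 in TUN, then the complex IV factor gene Coa5 (117, 126, 136 and 91.3 CPM) and the complex III factor gene Uqcc2 (66.4, 54.1, 82.0 and 77.4 CPM). Cyc1 and Uqcc2, like 6 of the 8 complex III members, were lowest in T10, whereas the complex III factor genes Uqcc1 and Ttc19 were highest there and lowest in TUN. Of 8 uncoupling proteins and nucleotide carriers 5 were tested and 0 passed. The heart and brain ADP/ATP carrier gene Slc25a4 led with 874, 798, 859 and 727 CPM. Its relative Slc25a5, linked to proliferating cells, had 168 CPM in T14 and 155 in T10, with 265 in T8 and 271 in TUN. Ucp2 had 118, 75.9, 85.2 and 129 CPM. Ucp1, the heat-producing protein of brown fat, had at most 1 count in a library and lay below the floor.

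Among 19 regulators of mitochondrial transcription and biogenesis, all tested, 2 passed the test, beside 4.34% of all genes tested. The coactivator gene Ppargc1a, which drives mitochondrial biogenesis in muscle, brain and brown fat, stood at 52.8 CPM in T14 and 46.8 in T10, with 10.4 in T8 and 7.46 in TUN (edgeR, adjusted p = 0.00492). Esrrb, which encodes an oestrogen-related receptor, stood at 10.03 CPM in T14 and 5.33 in T10, with 1.59 in T8 and 0.491 in TUN (edgeR, adjusted p = 0.0188). Both were high in T14 and T10 and low in T8 and TUN, the order of the neuron, astrocyte and pericyte marker sums alike. The sum of the 2 brown fat markers had that order too, but neither marker was detected. Of the neuron markers 9 of 10, of the astrocyte markers 4 of 7 and of the mature oligodendrocyte markers 6 of 6 also passed. The part of these cells in the level of Ppargc1a or Esrrb was not tested. Ppargc1a lost its call without T10 (adjusted p = 0.0537) and without TUN (0.120), and Esrrb lost its call without T14 (0.247), without TUN (0.542) and with no filter on low counts (0.166).

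Esrrg and Ppargc1b, related genes that were named after their values were seen, kept the same order of tumours without passing. Esrrg had 75.9, 71.7, 24.7 and 22.1 CPM (edgeR, adjusted p = 0.213) and Ppargc1b 8.30, 4.89, 1.47 and 0.893 CPM (edgeR, adjusted p = 0.143). The related gene Esrra kept that order over a smaller span of 1.75-fold (55.9, 44.3, 38.3 and 32.0 CPM). Pprc1, another related gene, did not, and was lowest in T14 and highest in T8 (34.7, 44.5, 55.4 and 51.3 CPM). The regulators with the highest counts were Polg, the mitochondrial DNA polymerase gene, at 363, 375, 583 and 332 CPM, Gabpa (115, 117, 145 and 166 CPM) and Yy1 (76.2, 71.3, 84.8 and 91.2 CPM). Gabpa and Yy1 were highest in TUN, where Ppargc1a and Esrrb were lowest. Across the same tumours Ppargc1a spanned 7.08-fold and no detected member more than 1.85-fold. Esrrb fell below 1 CPM in TUN and so was not itself detected, and it spanned 20.4-fold. Among undetected members with counts in all 4 tumours, Cox6a2 spanned 11.2-fold, Cox7a1 4.47-fold and Cox4i2 2.57-fold, on few counts. Of the 2 members with the receptor element in their window, Sdhd stood at 121, 104, 122 and 131 CPM and Atp5g3 at 284, 244, 257 and 246 CPM, both lowest in T10.

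**Figure D4:**
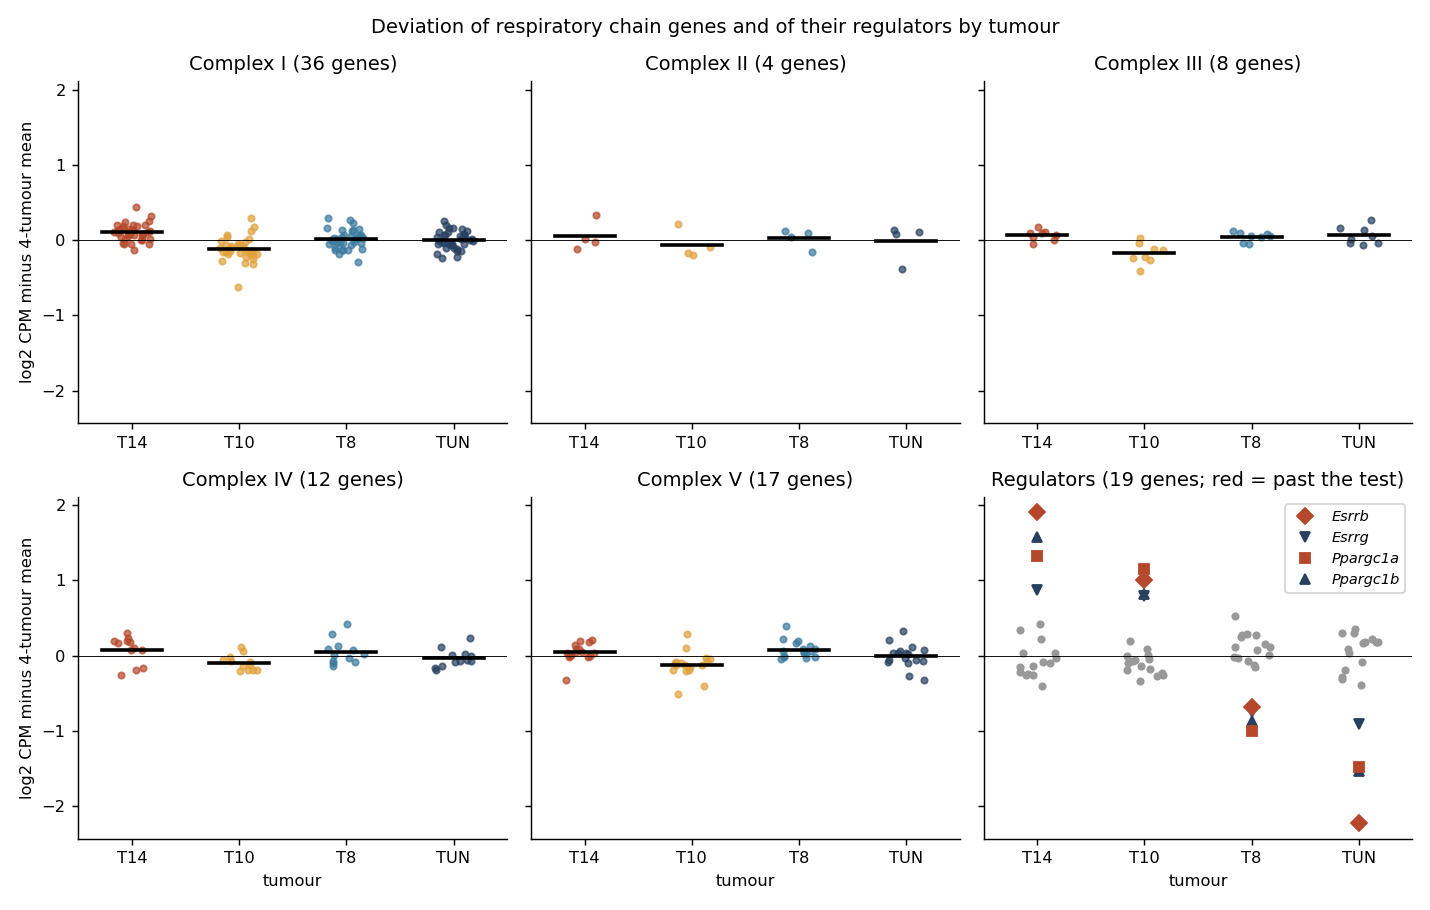
log2 CPM of each gene minus its mean over the 4 tumours, for the detected members of each complex (bars are means over members) and for the 19 regulators, with the 2 that passed the test in red. Members lie near 0 in every tumour, with T10 lowest at -0.12 over all of them, whereas Ppargc1a and Esrrb are above 0 in T14 and T10 and below 0 in T8 and TUN.

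Many respiratory chain genes have processed copies elsewhere in the genome, and reads that match several places can be lost in counting. In 12 of the 77 detected members (15.6%), at least 30% of the 50-base windows of the coding transcript occurred in transcripts of other genes, against 6.82% of all detected genes. These 12 had a median of 24.0 RPKM, and the other 65 a median of 71.2 RPKM. The share was 86.9% in Atp5g2, 84.8% in Atp5l, 52.5% in Cox7c and 50% in Atp5o. Across the 77 genes, which are not independent replicates and share these libraries, Spearman's rho between shared share and mean RPKM was -0.34. Among the low members, Cox7c stood at 5.50 RPKM, Atp5l at 9.40 and Ndufb4, with 36.8% shared, at 4.13. In contrast, Ndufb2 at 4.14 RPKM had 5.32% shared and a coding transcript of 4371 bases. How the deposited counts treated reads with several matches is not given in the sources used here, so the levels of the 12 genes are uncertain, and unannotated copies were not searched.

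**Figure D5:**
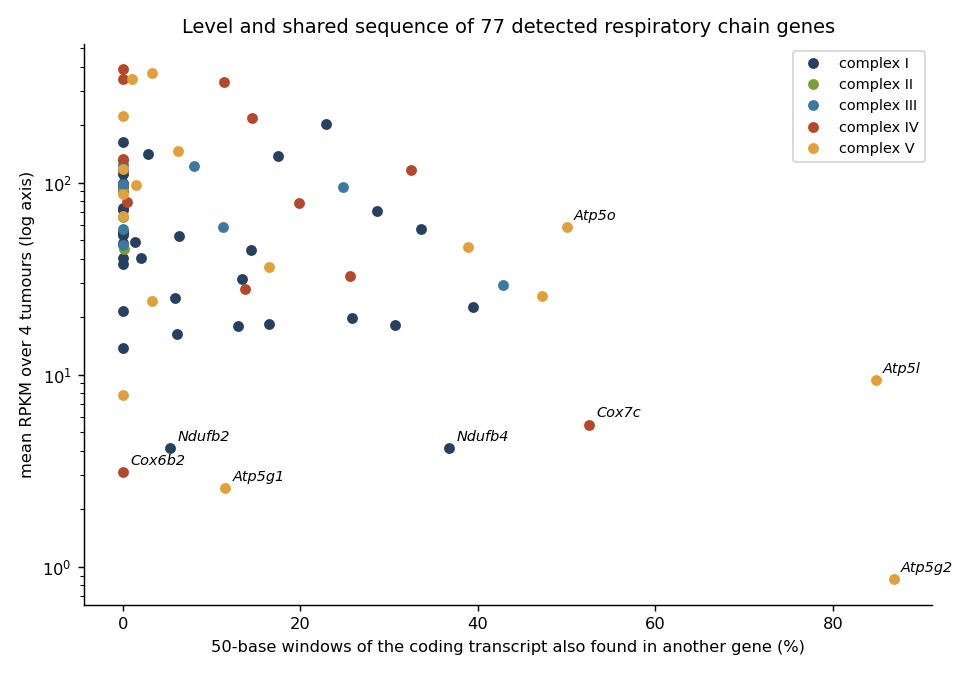
Mean RPKM over 4 tumours (log axis) of the 77 detected members against the percentage of 50-base windows of their coding transcript that also occur in another gene; points are genes coloured by complex. Atp5g2 and Atp5l lie at the right with 86.9% and 84.8% shared and below 10 RPKM, and low members with little shared sequence, such as Ndufb2 and Cox6b2, are at the left.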

How the data were processed

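Whole-tumour polyA RNA was extracted with RNeasy Plus and made into libraries from 500 ng with a TruSeq RNA kit, per the labels, which name no strand-specific step. STAR, featureCounts and the build mm10 are named in the submitters' processing notes, without versions. The deposited table holds raw counts per gene and a merged exon length made by the authors' counting. All 4 count columns were used and 0 were left out; none could be tied to 1 sample, and nothing says more than that the tumours are separate samples, so p-values measure only the spread between these samples, which may be technical. Symbols were found for 46451 of 46946 IDs.

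Counts were scaled with edgeR 4.0.16 in R 4.3.3 (TMM factors 0.971 to 1.03). After edgeR's default filter 14266 genes were tested by an intercept-only goodness of fit at the trended dispersion, with Benjamini-Hochberg adjustment over all of them; the biological coefficient of variation was 37.6%. As an alternative to that test, dispersion outliers were marked with DESeq2 1.42.0. The goodness of fit was checked on simulated counts in which a gene changed in a single library. It recovered 0 of 50 genes at 2-fold, 11 of 50 at 4-fold and 42 of 50 at 8-fold. RPKM used a pseudocount of 0.1, deviations a prior count of 2, and isoform ratios an exact sign-flip test. Floors are 3 counts and, like the intervals, cover counting error only. Shared sequence was counted in windows of 50 bases taken every 5 bases from GENCODE vM21 transcripts.

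Named genes were, per complex, the 2 highest and 2 lowest detected members, members below 1 CPM in all tumours, isoform pairs, core and F1 subunits, the 5 of widest span, members with 1 tumour far from the rest, and of each further list the 3 most abundant and every called gene. Members, lists and this rule were chosen with earlier results of these data known. Alternatives were other scalings and filters, other lengths and members, and leaving out each tumour. A member that the rule names is not reported here by itself and is left out of the plot of single genes; it remains in the counts and medians.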

Additional observations from a re-analysis of the deposited data

Results flagged for a closer look

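Of 104 members, ratios and complex values looked at, 8 had 1 tumour whose gap to the nearest of the others was, as a part of the range of the 4, above Dixon's 95% critical value, and 5 of the 8 were single members out of 77. Chance alone marks about 1 in 20 such groups. The low value of Atp5o in T10 had a gap of 0.968 of the range, that of Ndufs8 in T10 (62.6 CPM, against 73.0 to 74.4 in the others) 0.893, and that of the mean deviation of complex III in T10 0.914. High values in T14 stood out for Cox6c (0.928), Uqcrc2 (0.927) and Cox4i1 (0.833). These 5 members spanned between 1.10-fold and 1.25-fold, so the gaps are small in size. The ratio of Cox7b2 to Cox7b was highest in T14 (0.919), on 2 counts. The difference between complexes III and IV was lowest in T14 (0.835), at 1.34 against 1.48 to 1.51 in the others. None stood apart in T8 or TUN.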

How the results depend on the processing

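No member passed the goodness of fit under any scaling, filter, tool or left-out tumour tried, and DESeq2 marked 78 genes of the whole table, against 619 with edgeR. The mean of each of the 11 isoform ratios stayed below 0 under every alternative tried for it, but for Cox7a2l to Cox7a2 in CPM (-0.17) not in all 4 tumours. The differences between complexes (log2 of medians) kept theirs with pseudocount 1 and without each tumour, and depended on the length and on the members used. Differences are given for III minus II, I, V and IV, then II minus I, V and IV, then I minus V and IV, then V minus IV, leaving out those within the spread between tumours of the main value. In CPM they were -0.46, 0.73, 0.42, 1.08, 1.19, 0.88, 1.54, -0.31, 0.35 and 0.66. With the mean over members they were, from III minus I on, 1.34, 2.35, 2.64, 1.33, 2.34, 2.63, 1.004, 1.29 and 0.29. With detected members only, from III minus I on, they were 0.61, 0.41, -0.39, 0.55, 0.35, -0.46, -0.20, -1.01 and -0.80. With the coding transcript's length, from III minus I on, they were 0.52, -0.22, 0.72, 0.40, -0.34, 0.60, -0.74, 0.20 and 0.94. With members under 30% shared sequence, III minus II, I, V and IV were 0.38, 0.88, 0.041 and 1.65, II minus I and V 0.50 and -0.34, I minus V -0.84 and V minus IV 1.61. With Ndufa4 counted in complex IV, III, I and V minus IV were 1.34, 0.63 and 0.28. The last 3 of these settings were chosen after seeing the data, and fewer or other genes enter the medians in each.

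The span of the deviation between tumours was 0.23 in complex II with the median over members (0.12 with the mean) and 0.36 in complex IV with every member that had a count (0.17 with detected ones). Leaving out 1 tumour at a time it was 0.10 to 0.22 in complex I, 0.021 to 0.24 in complex III, 0.085 to 0.20 in complex V and 0.080 to 0.20 over all members, lowest without T10 each time. The number of all genes called was 426 to 462 without 1 tumour. No paired analysis was possible because the series has 1 group. Of the 14 undetected members, 10 had at most 3 counts in every tumour and so rest on few counts. The other 4 had more counts but fell below 1 CPM in at least 1 tumour. The loss of 5 regulator calls is given with their values above, and its cause was not tested.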
